A study of Mus musculus with 21 samples.

Results

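The MAP kinase cascade and its dual specificity phosphatases were examined as targets of the glucocorticoid receptor (GR) in mouse liver. The set holds 47 genes of 21900 protein-coding genes in a table of the GRCm38.p6 assembly: 5 MAP4 kinases, 10 MAP3 kinases, 7 MAP2 kinases, 11 MAP kinases, 2 MAP kinase-interacting kinases (MNK) and 12 dual specificity phosphatases (DUSP). Peaks of 18 GR ChIP-seq libraries that overlapped were merged into 7398 sites. A site was given to the protein-coding gene whose span lay nearest to the site's centre, up to 50 kb away, and 40 sites fell to 23 of the 47 genes.

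In a MAP kinase cascade a signal passes through kinases that phosphorylate each other in order, MAP4K, MAP3K, MAP2K and MAPK, and the last one phosphorylates transcription factors and further kinases such as the MNKs. The ERK branch answers mainly growth factors, while the p38 and JNK branches answer stress and cytokines. DUSPs of this family remove the activating phosphates from MAP kinases, and Dusp1 is a textbook glucocorticoid-induced gene in the anti-inflammatory response. The receptor is a transcription factor that a bound glucocorticoid activates.

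All libraries came from livers of C57BL/6J mice and from immunoprecipitation with the same GR antibody (H300). The 6 groups had 3 libraries each, which the design text names as biological replicates. Mice breathed 21% oxygen (normoxia) or 7% oxygen for 6 h or 24 h, and each oxygen condition had a group given 10 mg/kg of the synthetic glucocorticoid dexamethasone (DEX) intraperitoneally and a group given phosphate-buffered saline (PBS). Livers were taken 2 h after the injection. The labels name no removal of the adrenal glands, so the PBS groups may hold the animals' own corticosterone. The readout is binding in whole liver: fewer cells with bound receptor and less binding per cell cannot be told apart, and binding does not give the expression of the gene.

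Among the 40 sites, 1 promoter site was called in several libraries (a site at the Mapk14 promoter goes to a neighbouring gene by the rule and is given with the MAP kinases). Map3k6, which encodes the MAP3 kinase ASK2, carried a site at chr4:133240527-133240748. Its centre lay inside the gene's span (133237979 to 133252929), 181 bp upstream of an annotated start that itself lies inside the span. The stretch below is the part of this site that falls in the 250 bases before the start, on the plus strand at chr4:133240568-133240748, from RefSeq's GRCm38.p6 (mm10) promoter table. Capitals mark a match to GNACANNNTGTNC, the spacing of 2 receptor half-sites 3 bases apart, searched on both strands. The stretch below it is shown for contrast: it is the part, before the annotated start, of a site called in normoxia PBS replicate 1 alone at Map3k7 (the MAP3 kinase TAK1), on the plus strand at chr4:31963866-31964106, and it holds no match. The Map3k7 start used here also lies inside the gene's span.
Map3k6: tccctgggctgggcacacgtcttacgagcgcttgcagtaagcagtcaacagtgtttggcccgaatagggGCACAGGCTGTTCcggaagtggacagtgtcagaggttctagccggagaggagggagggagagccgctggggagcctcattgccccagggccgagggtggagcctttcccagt
Map3k7: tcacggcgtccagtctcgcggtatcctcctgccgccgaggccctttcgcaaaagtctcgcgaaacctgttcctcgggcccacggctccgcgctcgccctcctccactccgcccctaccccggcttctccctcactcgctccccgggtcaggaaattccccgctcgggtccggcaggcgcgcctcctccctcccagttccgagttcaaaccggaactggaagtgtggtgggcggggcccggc

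The match in the Map3k6 promoter, GCACAGGCTGTTC, lay at chr4:133240637-133240649, 6 bp from the centre of the site and 175 bp upstream of that annotated start. The motif was chosen after this promoter had been read, so the match is a description. Among 21263 promoter windows of protein-coding genes (250 bases before to 50 after a start), 94 (0.442%) held it, and of 51 windows of members the Map3k6 window was the only one. Of the 29 windows overlapped by a site called in all 9 DEX libraries 4 held it (13.8%, 95% Wilson interval 5.50 to 30.6%), and without Map3k6 3 of 28 did (10.7%). Windows overlapped only by sites of normoxia PBS replicate 1 held it in 5 of 1684 cases (0.297%, Wilson interval 0.127 to 0.693%). These windows differed in composition, with a median of 63.7% G and C and 25 CpG dinucleotides. The 29 windows had 55.7% and 7. The part of composition in the match rates was not tested. The half-site TGTTCT was in 16.2% of all windows and in neither printed stretch. The Map3k7 stretch (241 bp) had 27 CpG dinucleotides and 69.3% G and C, against 8 and 62.4% in the shorter Map3k6 stretch (181 bp). A promoter entry was found for 40 of the 47 members, and sites outside promoter windows are given by position only.

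Depth was 5772670 to 16500568 tags in 17 libraries and 43645787 in normoxia PBS replicate 1, and the peak caller accepted peaks down to 29.7 to 83.2 normalized tags in the 17 and down to 9.85 in that library. Normalized tags are the authors' tag counts per 10000000 tags of a library, and a library without a value at a site had no peak there in its list, which is not a value of 0. Normoxia PBS replicate 1 called 18 member sites and the other 2 libraries of its group called 2 and 3. Of its 18, 12 were called in no other library, with 11.2 to 20.8 tags, and 10 of the 11 that have a start in the promoter table lay within 1 kb of it, against 1 of the 28 other member sites. Over all protein-coding genes, 3176 of 6862 assigned sites were likewise called in that library alone. These 12 were the only sites of 9 genes: Map4k5, Map3k2, Map3k3, Map3k7, Map2k2, Map2k5, Map2k7, Mapk8 and Mknk1. Counts are therefore given with and without them.

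Receptor sites at the cascade were shared out over all its tiers. With all libraries, 23 of 47 members had a site (48.9%, against 22.1% of all protein-coding genes). Without the sites of normoxia PBS replicate 1 alone it was 14 of 47 (29.8%, against 10.6%), and all 14 had a site called with DEX. A site called in all 9 DEX libraries was found at 9 members (19.1%, against 3.03%): Map3k1, Map3k6, Map2k3, Map2k6, Mapk6, Mapk13, Mknk2, Dusp1 and Dusp14. By tier these were 0 of 5 MAP4K genes, 2 of 10 MAP3K, 2 of 7 MAP2K, 2 of 11 MAPK, 1 of 2 MNK and 2 of 12 DUSP genes. The members were chosen with results of these data known and their median span (21629 bp) was longer than that of all coding genes (17146 bp), so the shares are descriptions. No site was assigned to the other 24 members: Map4k1, Map4k2, Map4k4, Map3k4, Map3k8, Map3k11, Map3k14, Map2k1, Map2k4, Mapk3, Mapk4, Mapk7, Mapk9, Mapk10, Mapk11, Mapk12, Dusp2, Dusp3, Dusp4, Dusp7, Dusp8, Dusp9, Dusp10 and Dusp16.

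**Figure D1:**
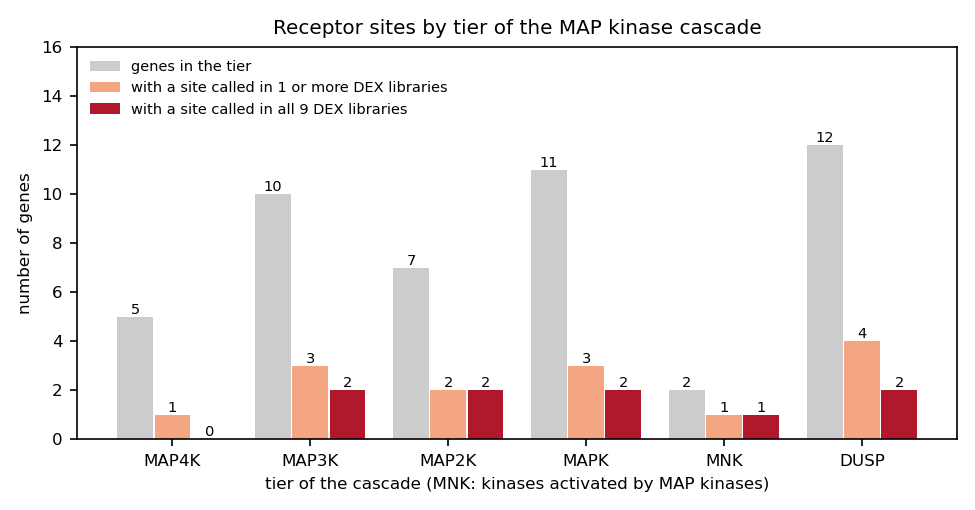
Members with a receptor site by tier of the cascade; bars count the genes of a tier (grey), those with a site called in at least 1 DEX library (orange) and those with a site called in all 9 (red). Each tier except MAP4K had at least 1 gene with a site in all 9 DEX libraries, 9 genes in total.

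The number of member sites per library was highest in normoxia with DEX. In the DEX arm it was 21.3 ± 4.16 (SD, n = 3 for every group mean) at 21% oxygen, 13.7 ± 1.53 at 6 h and 13 ± 2 at 24 h of 7% oxygen. In the PBS arm it was 7.67 ± 8.96, 6.33 ± 3.06 and 2.33 ± 1.53 in the same order. The normoxia PBS mean rested on replicate 1 with 18 sites, and the other 2 libraries of that group, with 2 and 3, were not above those at 6 h. All 3 normoxia DEX libraries (18 to 26 sites) were above all 6 hypoxia DEX libraries (11 to 15), which was not tested. For all sites the libraries overlapped, with 2235 in normoxia DEX replicate 2 and 2287 in 24 h DEX replicate 3. The share of tags in peaks ran from 1.38% to 3.68% in the DEX libraries. The mean count of all sites per library was lower in hypoxia too, 2803 ± 754, 1717 ± 391 and 1631 ± 572. The members' share of a library's sites was 0.77% ± 0.052, 0.812% ± 0.121 and 0.832% ± 0.155. The shares differed by less than the SD of the hypoxia groups.

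**Figure D2:**
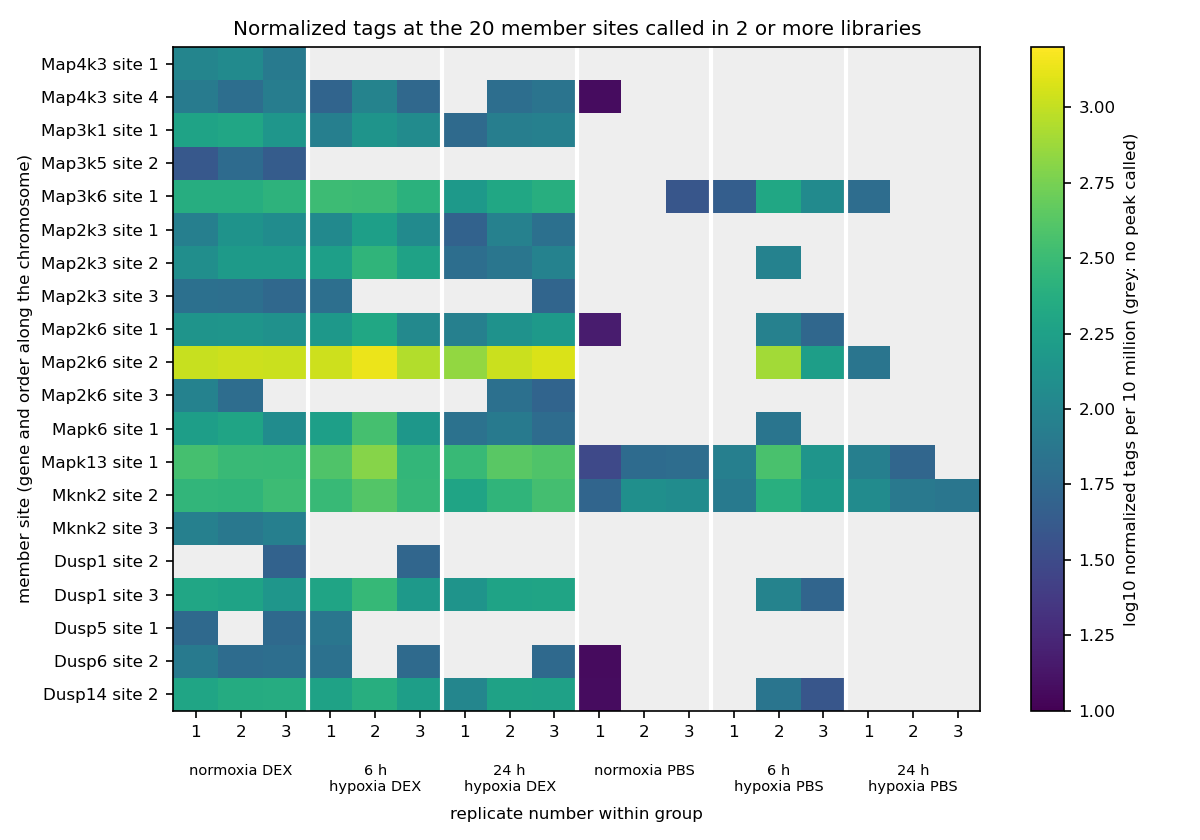
Normalized tags (log10 colour scale) of the 20 member sites called in 2 or more libraries, with libraries in columns by group; grey cells are libraries without a peak at that site. The 11 sites called in all 9 DEX libraries fill the left side, Map2k6 site 2 is the brightest, and Mknk2 site 2 is coloured in all 18 columns.

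DEX against PBS was compared by whether a library called a site, with a two-sided exact Cochran-Mantel-Haenszel test whose strata were the oxygen conditions and Benjamini-Hochberg adjustment over all 2563 sites called in at least 3 of 18 libraries. Of 19 member sites tested, 10 were called more often with DEX, where 55.3% of all tested sites were, and 0 less often, where 0.039% of all were. The 10 lay at 7 genes: Map4k3, Map3k1, Map2k3, Map2k6, Mapk6, Dusp1 and Dusp14. Every one of the 9 member sites that a PBS library other than normoxia PBS replicate 1 called was called in 6 h hypoxia PBS replicate 2, a library that called 68.2% of the 935 sites found in all 9 DEX libraries. The other PBS libraries called 7.17% to 51.3% of those 935.

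At the top of the cascade only Map4k3, a kinase upstream of JNK that also takes part in amino acid signalling to mTORC1, had sites called with DEX. Its best detected site, chr17:80760652-80760932, lay 31986 bp outside the gene's span and had 82.7, 62 and 85.9 tags in the normoxia, 50.7, 97 and 55.2 in the 6 h and 62.2 and 70.4 in the 24 h DEX libraries, where 24 h replicate 1 had no peak. With PBS only normoxia replicate 1 called it, with 11.9 tags. Called in 8 DEX libraries and 1 PBS library, it passed the exact test (adjusted p = 0.0112).

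In the MAP3K tier, Map3k1 (MEKK1, which feeds the JNK branch) carried a site inside its span at chr13:111796491-111796722, 12387 bp downstream of the gene start. With DEX it had 189.7, 200.4 and 144 tags in the normoxia libraries, 89.1, 137 and 114 in the 6 h libraries and 57.3, 87 and 90.2 in the 24 h libraries, and no PBS library called it. This is the strongest contrast the design allows (9 of 9 against 0 of 9, exact p = 0.00025, adjusted p = 0.00307). It was not particular to Map3k1: a Map2k3 site and a site at Fgfr4, outside the set, had it too. Its share over all sites is not given here, and 55.3% of all tested sites were called more often with DEX. The Map3k6 promoter site had 237, 234 and 263 tags in the normoxia libraries, 324, 319 and 252 in the 6 h libraries and 152, 206 and 241 in the 24 h libraries with DEX. With PBS it was called in 5 libraries, with 38.8 tags in normoxia, 45.3, 204 and 113 at 6 h and 60.6 at 24 h. All 9 DEX values were above the values of the PBS libraries that called it, except that of 6 h replicate 2. How many of all sites had such a separation is not given here. Detection of the Map3k6 site did not pass the exact test (9 against 5 libraries, adjusted p = 0.119). With only peaks of at least 83.2 tags counted, it passed (adjusted p = 0.00659; range over the alternatives 0.00659 to 0.342). Map3k5, which encodes the oxidative stress kinase ASK1, had 3 sites inside its span, all in normoxia with DEX only. One of them was called in all 3 libraries of that group, and the others in replicate 1 with 66.8 and 54.6 tags.

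Of the MAP2 kinases, the 2 with DEX sites were Map2k3 and Map2k6, which both activate p38, and each had 3. The strongest member site of all lay inside the Map2k6 span at chr11:110448935-110449144 and had 1042, 1073 and 1050.5 tags in the normoxia libraries, 1069, 1353 and 882 in the 6 h libraries and 691, 1054 and 1184 in the 24 h libraries. It ranked 7 of the 935 sites called in all 9 DEX libraries by mean tags, where the median site had 139.8. With PBS it was called in 3 hypoxia libraries, with 784 and 171 tags in 2 libraries at 6 h and 71.5 in 1 at 24 h. The values with PBS thus ran from far below the DEX range to within it.

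A further Map2k6 site, chr11:110379653-110379941, lay 19305 bp upstream of the span. It had 137, 141 and 131 tags in the normoxia libraries, 149, 206 and 107.5 in the 6 h libraries and 90.6, 131 and 152 in the 24 h libraries with DEX, and with PBS 14.7 in normoxia replicate 1 and 93.5 and 54 in 2 libraries at 6 h. Both sites were called in 9 DEX and 3 PBS libraries and passed the exact test (adjusted p = 0.0216 each). With all sites tested both calls were lost (exact test, adjusted p = 0.0622 each), and over the alternatives the values were 0.0031 to 0.0657 upstream and 0.0056 to 0.0657 inside. The third, chr11:110463193-110463410, was called in 4 DEX libraries with 51.4 to 94.1 tags and did not pass (adjusted p = 0.119).

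The 3 Map2k3 sites lay inside the gene, 1910 to 3827 bp downstream of its start, with their centres 1364 and 553 bp apart, so they share a locus and are not independent. The first, chr11:60933853-60934075, had 89.5, 135 and 118 tags in the normoxia libraries, 111, 175 and 112 in the 6 h libraries and 48.7, 92.7 and 64.9 in the 24 h libraries with DEX and no peak with PBS (exact p = 0.00025, adjusted p = 0.00307). The second, chr11:60935223-60935434, had 122, 158 and 159.5 tags in the normoxia libraries, 173, 277 and 185 in the 6 h libraries and 62.4, 73.5 and 94.9 in the 24 h libraries with DEX. With PBS it was called once, at 94.6 tags in 6 h hypoxia replicate 2, and passed (adjusted p = 0.00438 by the exact test). All 3 values at 24 h were below the 6 other DEX values at the second site. The third, chr11:60935756-60936007, was called in 5 DEX libraries with 52.2 to 65.2 tags and in no PBS library. Its call (exact test, adjusted p = 0.0452) was lost without 6 h hypoxia DEX replicate 1 (0.0739) or 24 h hypoxia DEX replicate 3 (0.0785), over a range of 0.0189 to 0.13 in all alternatives.

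Among the MAP kinases themselves, Mapk6 (ERK3, an atypical MAP kinase) had a site 1333 bp outside its span at chr9:75385345-75385553. With DEX it had 171, 194 and 118 tags in the normoxia libraries, 173, 359 and 145 in the 6 h libraries and 67.5, 79.1 and 60.1 in the 24 h libraries, and with PBS only 6 h replicate 2 called it, with 71 tags (exact test, adjusted p = 0.00438). The site nearest Mapk13 (p38 delta), chr17:28761013-28761293, lay 8133 bp from its span, with Mapk14 (p38 alpha) next at 12748 bp. It had 357, 309 and 306 tags in the normoxia libraries, 391, 632 and 284.5 in the 6 h libraries and 305, 435 and 389 in the 24 h libraries with DEX. With PBS it had 30.5, 58.8 and 60.6 in normoxia, 89.4, 367 and 140.2 at 6 h and 89.4 and 53.7 in 2 libraries after 24 h. Only 24 h PBS replicate 3 lacked a peak, and detection did not pass the test (9 against 8 libraries, exact adjusted p = 1). With only peaks of at least 83.2 tags counted, Mapk13 detection passed (exact adjusted p = 0.0332; range over the alternatives 0.0332 to 1). The PBS values were below all DEX values except that of 6 h replicate 2, and the share of all sites with such a separation is not given here. Mapk14 itself had 1 site inside its span, in normoxia DEX replicate 1 only (49.3 tags).

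The rule leaves out a site at the Mapk14 promoter. At chr17:28690868-28691148, 334 bp upstream of the Mapk14 start, its centre lay nearer to the neighbouring gene Slc26a8, a transporter gene, and it was the 1 site that overlapped a member's promoter window or span but went to another gene. It had 160.1, 106 and 114 tags in the normoxia, 144, 239 and 104 in the 6 h and 112, 121 and 139 in the 24 h DEX libraries. With PBS it had 20.8 in normoxia replicate 1 and 87.9 and 53.3 in 2 libraries at 6 h (9 against 3 libraries, exact adjusted p = 0.0216). It was looked up after the values were seen and is not counted among the 40.

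Mknk2 (MNK2, which phosphorylates the translation factor eIF4E) had the one member site called in all 18 libraries, chr10:80664585-80664865, 593 bp outside the span. It had 278, 275 and 320.5 tags in the normoxia libraries, 302, 411 and 293 in the 6 h libraries and 191, 276 and 346.5 in the 24 h libraries with DEX. With PBS it had 52.7, 126 and 118 in normoxia, 80.5, 243 and 159 at 6 h and 116, 76.8 and 72.7 at 24 h. The groups overlapped through 6 h PBS replicate 2 and 24 h DEX replicate 1. A limma fit of log2(normalized tags + 1) over the 62 sites called in all 18 libraries, without centring, gave 1.47 ± 0.31 (SE) for DEX minus PBS, or 2.77-fold (adjusted p = 5.43e-06), where 95.2% of the 62 were higher. The median of the 62 was 1.62, and relative to each library's median the Mknk2 difference was -0.15. Over the 133 sites called in at least 2 of 3 libraries of each group, the limma difference was 1.47 ± 0.30 at Mknk2 and 2.15 ± 0.31 at Mapk13 (adjusted p = 1.64e-06 and 5.49e-11), with the 1 missing Mapk13 value left out. Both limma fits pooled the spread over their sites. Without centring, a shift of a whole library moves those sites together, so these p-values may be too small.

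Of the 12 phosphatase genes, Dusp1, Dusp5, Dusp6 and Dusp14 had sites, all of them called with DEX. Dusp1 (MKP-1, which acts on p38 and JNK) had its main site 4183 bp upstream of the gene, at chr17:26512541-26512769. It had 200.3, 189.9 and 144 tags in the normoxia libraries, 193, 299.7 and 154 in the 6 h libraries and 137, 189 and 193 in the 24 h libraries with DEX and, with PBS, 95.8 and 52.7 in 2 libraries at 6 h (9 against 2 libraries, exact test adjusted p = 0.00859). The lowest DEX value was above both PBS values, and the PBS libraries without a peak have no value. How many of all sites had such a separation is not given here. Closer to the Dusp1 start, 1018 bp upstream, a site was called in 2 DEX libraries with 49.5 and 53.3 tags, and 1120 bp outside the other end of the span one was called in normoxia DEX replicate 1 with 44 tags.

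Dusp14 (MKP-6) had its main site inside the span at chr11:84053632-84054029. It had 198, 227 and 232 tags in the normoxia libraries, 186, 237 and 171 in the 6 h libraries and 103, 184 and 181 in the 24 h libraries with DEX, and 11.9 in normoxia replicate 1 and 71 and 38.5 in 2 libraries at 6 h with PBS, and passed (exact test, adjusted p = 0.0216). With all sites tested the Dusp14 call was lost (exact test, adjusted p = 0.0622; range over the alternatives 0.0031 to 0.0657). In the 3 PBS libraries that called it, the values were below its DEX values, and the others have no value. The share of all sites with such a separation is not given here. Of the 62 sites called in all 18 libraries, 95.2% were higher with DEX by limma. Dusp6, the cytoplasmic ERK phosphatase, had a weaker site 3192 bp outside its span at chr10:99270519-99270843, with 81.2, 60.1 and 61.9 tags in normoxia, 65.6 and 57.1 in 2 libraries at 6 h and 57 in 1 at 24 h with DEX. It was called in 6 DEX libraries and 1 PBS library and did not pass (exact test, adjusted p = 0.0677). Without normoxia PBS replicate 1, the PBS library that called it with 11.5 tags, the value was 0.02, over a range of 0.0189 to 0.195 in all alternatives. Dusp5, the nuclear ERK phosphatase, had a site 21501 bp upstream, called in 3 DEX libraries with 56.5 to 73.4 tags (exact test, adjusted p = 0.23). Of the phosphatase sites, the main ones at Dusp1 and Dusp14 were the 2 called in every DEX library.

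**Figure D3:**
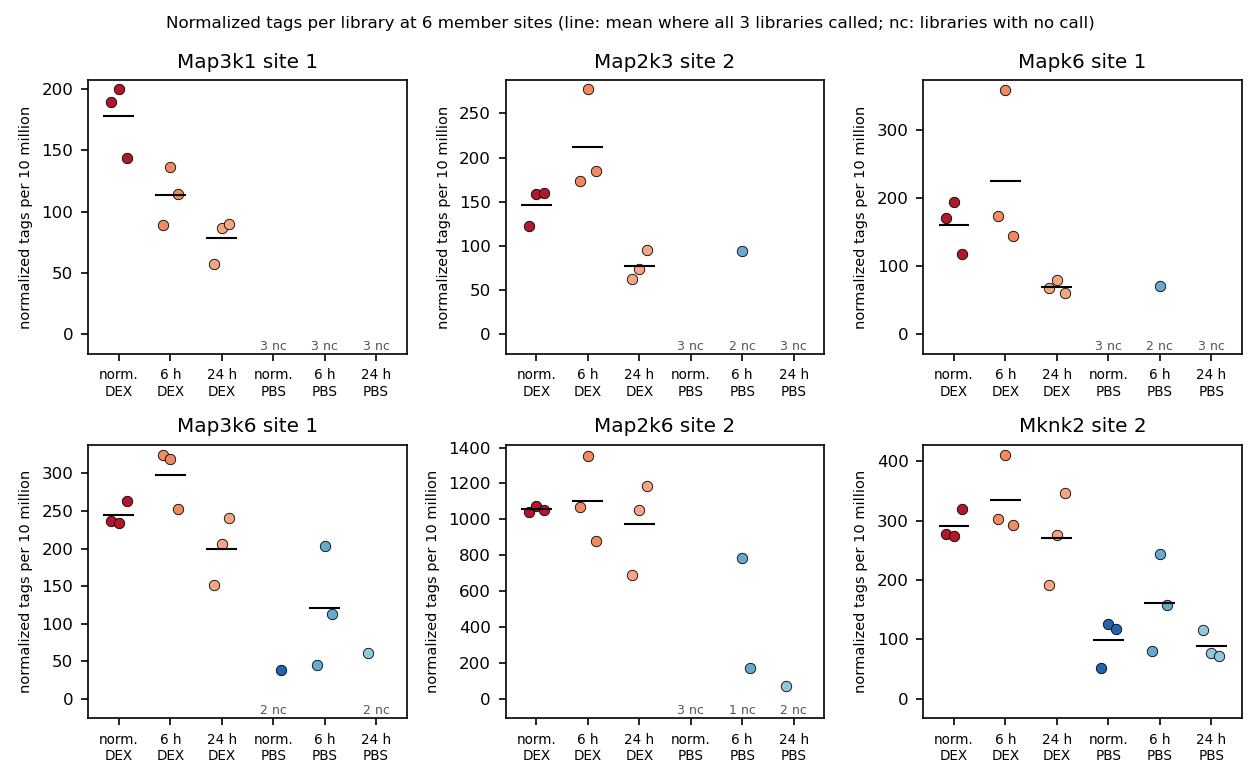
Normalized tags (linear axis, per 10000000) at 6 member sites, by group; each point is a library, lines are means of groups in which all 3 libraries had a peak, and nc counts libraries with no call. DEX values of Map2k6 site 2 ran from 691 to 1353, and those of Map3k1 and Mapk6 were lowest at 24 h.

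Hypoxia was compared within the DEX arm at the 935 sites called in all 9 DEX libraries, 11 of them at members, with a limma fit of log2(normalized tags + 1) centred on each library's median over those sites. The Map3k1 site was the member that changed with hypoxia taken as a whole: it fell by 0.77 ± 0.15 (SE) on the log2 scale, 1.71-fold (adjusted p = 0.00812), where 2.03% of the 935 were lower and 3.1% higher. Its mean tags were 178 ± 29.96 in normoxia, 113 ± 23.9 at 6 h and 78.2 ± 18.1 at 24 h. All 6 hypoxia libraries were below all 3 normoxia libraries. In tags that were not centred, 2.03% of the 935 had all 6 h values below normoxia and 18.8% all 24 h values. The Map3k1 call was lost by limma without normoxia DEX replicate 2 (adjusted p = 0.0628) and without centring (0.0612), over a range of 0.00367 to 0.0628 in 13 alternatives. At 24 h against normoxia alone the fall was 0.91 ± 0.17 (limma adjusted p = 0.0076), and it passed under all 13 alternatives with an adjusted p of up to 0.0486.

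After 6 h no member site passed by limma (0 of 11, with 3 at an unadjusted p under 0.05), where 1.71% of the 935 were higher and 0.856% lower. The 3 were Map3k1 (-0.64, adjusted p = 0.0747), Map2k3 site 2 (0.52, adjusted p = 0.159) and Mapk13 (0.36, adjusted p = 0.216). After 24 h, 2 of 11 were lower than in normoxia and 0 higher, where 2.03% and 2.14% of the 935 were: Map3k1, given above, and Mapk6. The Mapk6 site had 161 ± 38.6 tags (SD) in normoxia, 225 ± 116 at 6 h and 68.9 ± 9.58 at 24 h. It fell by 0.91 ± 0.22 at 24 h against normoxia (limma adjusted p = 0.0273), and all 3 values at 24 h were below the 6 others. In tags that were not centred, 18.8% of the 935 had all 24 h values below normoxia and 12.1% below 6 h. The Mapk6 call was lost by limma without 24 h DEX replicate 2 (adjusted p = 0.0923), 24 h DEX replicate 3 (0.12) or normoxia DEX replicate 2 (0.141), over a range of 0.00622 to 0.141.

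The times of hypoxia differed from each other at 2 member sites. Between 6 h and 24 h, Map2k3 site 2 fell by 1.17 ± 0.18 on the log2 scale, 2.24-fold (limma adjusted p = 0.00527), and Mapk6 fell by 1.32 ± 0.22, 2.49-fold (adjusted p = 0.00754), where 1.28% of the 935 were lower and 0.107% higher. Both calls held under all 13 alternatives, with adjusted p of up to 0.043 and 0.0484. The Map2k3 site had 147 ± 21.3 tags (SD) in normoxia, 212 ± 57.1 at 6 h and 76.9 ± 16.5 at 24 h. Each 6 h library was above, and each 24 h library below, every normoxia library in tags that were not centred. Of the 935 sites, 3.85% had all 6 h values above normoxia and 18.8% all 24 h values below. Neither shift from normoxia passed by limma at this site. It was 0.52 at 6 h (adjusted p = 0.159) and -0.65 at 24 h (adjusted p = 0.0508; range over 13 alternatives 0.0141 to 0.192). The neighbouring Map2k3 site 1 had -0.68 ± 0.19 between the times (limma adjusted p = 0.0964). Its 24 h values were below its 6 h values, as they were at 12.1% of the 935 sites.

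The other 8 member sites, Map2k3 site 1 among them, did not pass in any of these comparisons with all libraries. Mapk13 came nearest, with 0.43 ± 0.12 for hypoxia against normoxia (limma adjusted p = 0.0639; range over 13 alternatives 0.0422 to 0.996). Map2k3 site 1 passed without normoxia DEX replicate 1 at 24 h against normoxia (limma adjusted p = 0.0336; range 0.0336 to 0.43) and against 6 h (0.0396; range 0.0384 to 0.416). Map2k6 site 2 had 0.09 ± 0.12, Dusp1 0.24 ± 0.12, Dusp14 -0.19 ± 0.13, Map3k6 0.13 ± 0.15 and Mknk2 0.17 ± 0.14 (limma adjusted p of 0.32 to 0.715). Without centring the median of all 935 sites was -0.10 for hypoxia and -0.22 for 24 h against normoxia, in place of 0.05 and 0.06 with it, and the sign at Map2k6 and Map3k6 turned for hypoxia (-0.054 at Map2k6 site 2 and -0.018 at Map3k6). At the 62 sites called in all 18 libraries, the effect of DEX was not shown to differ between hypoxia and normoxia at Mknk2 (-0.26 ± 0.67, limma adjusted p = 0.77), nor at any of the 62, of which 3 had an unadjusted p under 0.05. These differences were not centred, and their median over the 62 was -0.64. When centred, the Mknk2 difference was 0.45.

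**Figure D4:**
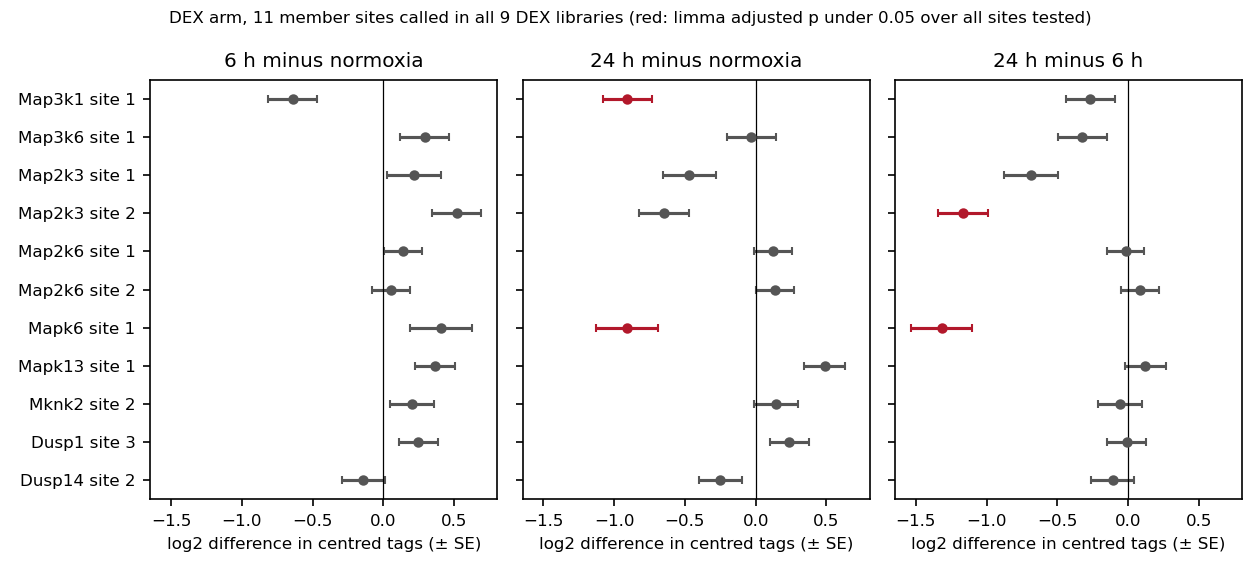
Log2 change (limma estimate with its SE) at the 11 member sites called in all 9 DEX libraries, for each comparison within the DEX arm. Map3k1 lies below 0 against normoxia at both times, and Map2k3 site 2 and Mapk6 lie farthest below 0 between 24 h and 6 h.

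Detection in the DEX arm was compared between hypoxia and normoxia with Fisher's exact test. Of 20 member sites tested 0 passed (3 at an unadjusted p under 0.05), as did 0 of all 2938 sites (0%), of which 260 had an unadjusted p under 0.05. The 3 were called in all 3 normoxia libraries and in none of the 6 hypoxia libraries: Map4k3 site 1 with 100.1, 113 and 79 tags, Mknk2 site 3 with 91, 76.4 and 89 tags and Map3k5 site 2 with 40.2, 59.2 and 43.3 tags. This is the smallest p that 3 against 6 libraries allow (exact p = 0.0119, adjusted p = 0.343), and 102 sites of the series had it. The smallest accepted peaks were 37.9 to 47.7 tags in the normoxia DEX libraries, 42 to 83.2 at 6 h and 38.8 to 57.6 at 24 h, so Map3k5 site 2 lay near the threshold. The part of these thresholds in the result was not tested. A further 8 member sites were called in 1 DEX library only, 7 of them in normoxia DEX replicate 1 and 1 in normoxia DEX replicate 3, with 44 to 66.8 tags. That replicate 1 called 26 member sites, the most of any library. With PBS, 0 of 7 member sites passed Fisher's exact test and 0 had an unadjusted p under 0.05 (0 of all 632 sites passed, 0%, and 3 had an unadjusted p under 0.05).

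Of the 28 member sites not limited to normoxia PBS replicate 1, 1 lay within 1 kb of an annotated start, the Map3k6 site. Of all 40 sites 25 lay inside the span of their gene. Whether those inside fall in exons or introns was not analysed here.

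**Figure D5:**
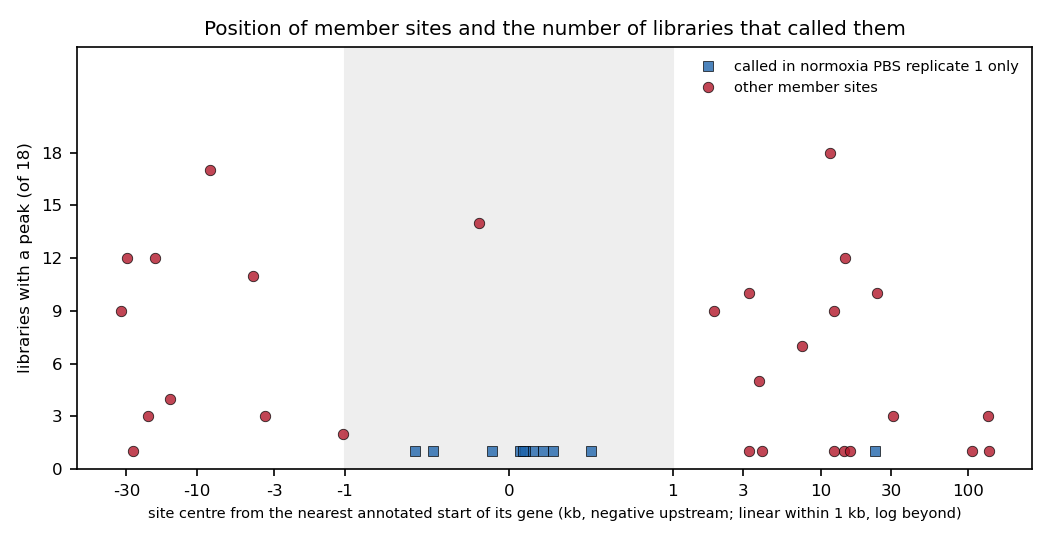
Distance of each member site from the annotated start of its gene (kb, linear within 1 kb and log beyond) against the number of libraries that called it; a site of Map3k2 without an annotated start is left out. Sites of normoxia PBS replicate 1 alone lie mostly within 1 kb of the start, while sites called in at least 9 libraries, Map3k6 apart, lie more than 1 kb away.

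The rest of the pathway was described with 6 further lists, 111 genes in all. Of these, 38 had a site, 21 without those of normoxia PBS replicate 1 alone (18.9%), and 8 had one in all 9 DEX libraries (7.21%, against 19.1% of the members and 3.03% of all coding genes). Of their 24 sites tested, 12 were called more often with DEX by the exact test and 0 less often (background as above, 55.3% and 0.039%).

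By list, the MAP kinases and MAP3 kinases outside the set had 4 of 18 genes with a site and 0 with one in all 9 DEX libraries, the best being Taok3, called in 5 DEX libraries. The growth factor, Ras and Raf inputs had 5 of 21 genes with a site. Fgfr4, a hepatocyte receptor for bile acid-regulating FGF, had 94.4 ± 36.3 tags (SD, n = 9 DEX libraries) and no PBS peak (exact adjusted p = 0.00307), and Egfr had 132 ± 37.0 and was called in 3 PBS libraries (exact adjusted p = 0.0216). The stress inputs and scaffolds had 4 of 20. Gadd45g, whose product binds and activates the p38 and JNK activator MEKK4, had a site 17803 bp from its span with 743 ± 166 tags with DEX. The 1 PBS library that called it had 614 tags, within the spread of the DEX values (exact adjusted p = 0.00438). Gadd45b had a site of 132 ± 75.3 tags with DEX and 67.6 in 1 PBS library (exact adjusted p = 0.00438).

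The kinases and transcription factors downstream had 3 of 24 genes with a site. They were Mapkapk2, the p38 target kinase MK2 (82.7 ± 30.7 tags, in all 9 DEX libraries and 1 PBS library), Egr1 (in 8 DEX libraries) and Jun (in 7), the last pair with no PBS peak (exact adjusted p of 0.00438, 0.00438 and 0.00859). The feedback inhibitors had 6 of 17, among them Zfp36 (TTP, which destabilises cytokine mRNAs), with 1103 ± 199.6 tags with DEX and called in all 18 libraries, and Errfi1, an inhibitor of EGFR. The other DUSP genes had 0 of 12. All these counts leave out sites of normoxia PBS replicate 1 alone, with which they were 5, 10, 7, 8, 8 and 1 in the order given.

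Of 12 classical receptor targets, 12 had a site and 10 had one in all 9 DEX libraries. Of their 36 tested sites, 17 were called more often with DEX by the exact test, a share below the 55.3% of all tested sites. A site that every library called cannot pass this test, whatever its tags. The best detected sites at Cdkn1a, Per1 and Zbtb16 were of this kind. Their mean tags were 966, 440 and 461 with DEX and 234, 376 and 214 with PBS. Sites were found at 6 of 8 hepatocyte markers, 1 of 8 Kupffer cell and leukocyte markers, 3 of 6 endothelial markers and 1 of 7 stellate cell and cholangiocyte markers. At the best of these, Cps1, Alb and Tat for hepatocytes and Vwf and Stab2 for endothelium, sites were called in 6 to 9 DEX libraries. The part of cell types other than hepatocytes in the members' binding was not tested.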

How the data were processed

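GR was mapped by ChIP-seq in 18 liver libraries, 3 in each of 6 groups set by the sample titles; the 3 inputs entered only through the peak calls. Per the submitters' processing notes, Trimmomatic, BWA 0.7.17, SAMtools 1.10 and HOMER were used with mm10, HOMER with no version stated. Per the file headers, peaks were called in single libraries against an input and needed 4-fold more tags than it (Poisson p of 1e-04). The deposited signal is a normalized tag count per 10000000 tags, the deposited score is the peak caller's, and the deposited ratio is its fold over input. Per the file headers the peak size was 280 bp and the cap 2 tags per base in normoxia PBS replicate 1, against 178 to 196 bp in the others. Depth was 5772670 to 43645787 tags, and the smallest accepted peak was 9.85 to 83.2 normalized tags, so weak sites are less detectable in shallow libraries. No libraries of a group held identical lists.

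Peaks overlapping by at least 1 bp were merged, and a site's value in a library is the normalized tag count of its highest peak. Genes came from RefSeq's GRCm38.p6 tables. Detection was tested with an exact Cochran-Mantel-Haenszel test (DEX against PBS, sites in at least 3 libraries) and Fisher's exact test (hypoxia, 6 h and 24 h together, against normoxia, sites in at least 2 of 9), both two-sided. Tags were tested with limma 3.58.1 (R 4.3.3) on log2(normalized tags + 1), with a pseudocount of 1 that lessens the change of low sites: a 3-group fit of the 9 DEX libraries centred on their medians, and a 6-group fit of 18 libraries without centring. All p-values were Benjamini-Hochberg adjusted over all sites tested, with a threshold of 0.05. Wilson intervals (95%) cover counting error only. The methods were tested on simulated data. Python 3.11.15, NumPy 2.4.6 and SciPy 1.17.1 were used.

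The members and lists were chosen with earlier results of these data known, so no p-value is given for the set. Sites were described in full if they passed a test, were called in at least 6 of 9 libraries of an arm, or lay within 1 kb of a start in at least 2 libraries; other sites named, and the site at the Mapk14 promoter, were chosen after their values were seen. Libraries of the same replicate number did not all deviate together (r of 0.006 to 0.505 over 9 pairs of DEX libraries, 7 above 0.1). Their mean r was 0.232, against -0.117 for pairs of DEX libraries with other numbers. The labels name no pairing, so the numbers were not taken as pairs, and a shared structure was not tested. The alternatives were other peak thresholds and overlaps, list lengths, gene distances, filters, pseudocounts, centring, the replicate block and leaving out each library. Of the gene lists, Dusp29 was not matched in the table.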

Additional observations from a re-analysis of the deposited data

Results flagged for a closer look

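Both results below were picked out because the effect of hypoxia with DEX differed between 24 h and 6 h by a test of the difference itself. At Map2k3 site 2 the 24 h effect minus the 6 h effect was -1.17 on the log2 scale (limma adjusted p = 0.00527 over 935 sites), with 3 of 3 libraries at 24 h below 3 of 3 at 6 h. At the Mapk6 site it was -1.32 (limma adjusted p = 0.00754), again with 3 of 3 libraries below 3 of 3. Of all 935 sites, 12 were lower and 1 was higher at 24 h than at 6 h by limma. In tags that were not centred, 113 of the 935 (12.1%) had all 24 h values below all 6 h values.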

How the results depend on the processing

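Counts of member sites below are followed by counts over all sites. DEX against PBS detection (10; 1418 more often and 1 less often) gave 803 over all sites with peaks of at least 83.2 tags only, 2 and 42 with lists of the 78 best peaks each, and 6 and 930 with all sites tested. The 2 with short lists were Map2k6 site 2, more often with DEX, and Mknk2 site 2, less often (0 DEX and 7 PBS libraries). Over all sites, 28 were called more often and 14 less often. With lists of equal length a call depends on the rank of a site within its library, so it does not give the direction of its tags. Those of Mknk2 site 2 were 2.77-fold higher with DEX by limma without centring. Without centring, combined hypoxia gave 0 and 11 (1 and 48 with it), and over all sites 6 h against normoxia gave 3 (24), 24 h against normoxia 18 (39) and 24 h against 6 h 8 (13). DEX against PBS tags (1; 59) gave 0 and 37 when centred and 2 and 129 over sites in 2 of 3 libraries of each group. Member genes with a site (23) numbered 10 at the common threshold and 3 with short lists.

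Whether the replicate numbers mark pairs of libraries is not known. A fit with the replicate number as a block gave 6 and 921 for DEX detection and 2 member sites for combined hypoxia. It gave 4 and 83 at 24 h, 40 over all sites at 6 h and 43 between the times. Under the block the calls of Map2k3 site 3 (exact test, adjusted p = 0.106), Map2k6 sites 1 and 2 and Dusp14 site 2 (0.0657 each) were lost, and by limma Mapk13 passed for combined hypoxia (0.0422) and at 24 h (0.0404), Map2k3 site 2 at 24 h (0.0266) and Map2k3 site 1 between the times (0.0384). The 4 detection calls lost under the block were those lost with all sites tested.

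Leaving out 1 library gave ranges of 9 to 12 and 1310 to 1608 (DEX detection), 0 to 1 and 23 to 65 (combined hypoxia), 0 to 1 and 5 to 42 (6 h), 1 to 4 and 19 to 79 (24 h), 2 to 3 and 5 to 28 (24 h against 6 h), 1 to 2 and 58 to 95 (DEX tags) and 0 to 3 over all sites (DEX by hypoxia). Member genes ranged from 14, without normoxia PBS replicate 1, to 23.

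Site values that changed sign from a main value other than 0 were all short of the threshold in the alternative. At Mknk2 site 2 the DEX minus PBS share of libraries was 0 in the main test. It was -0.778 with short lists (exact test, adjusted p = 0.0193) and 0.444 with peaks of at least 83.2 tags only (0.122). When centred, Mknk2 gave -0.15 for DEX and 0.45 for DEX by hypoxia. Without centring, hypoxia gave -0.019 at Map2k6 site 1, -0.054 at Map2k6 site 2 and -0.018 at Map3k6; 24 h against normoxia gave -0.046 at Dusp1 site 3, -0.16 and -0.15 at Map2k6 sites 1 and 2 and -0.14 at Mknk2; 24 h against 6 h gave -0.19 at Map2k6 site 2 and -0.15 at Mapk13. Over sites in 2 of 3 libraries, 24 h against 6 h gave 0.015 at Dusp1 and 0.0074 at Map2k6 site 1. Leaving out 1 library turned 24 h against 6 h at Map2k6 site 1 (range -0.068 to 0.037), Dusp1 (-0.042 to 0.027) and Mknk2 (-0.14 to 0.034), 24 h against normoxia at Map3k6 (-0.094 to 0.069), combined hypoxia at Map2k3 site 2 (-0.23 to 0.046) and DEX by hypoxia at Mknk2 (-0.48 to 0.14). The causes were not tested. Detection depends on depth and on the caller's threshold, and tags are known only where a peak was called, so low binding in PBS libraries has no value here.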
